A study of Homo sapiens with 12 samples.

Results

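The tight junction gene CLDN12 was followed together with 8 other genes of the same cell contact, CLDN1, CLDN3, CLDN4, CLDN6, CLDN7, CLDN11, OCLN and TJP1, on 12 gene expression arrays of HEK293T cells. The members were taken by gene symbol, with the brightest row of the table standing for each gene, and CLDN12 was chosen by its measured log2 signal, which was lower in all 3 knockdowns than in the control. Of the 9 genes, 8 had a row of their own among the 18417 genes of the table. The remaining gene, OCLN, had only a row that is annotated to both OCLN and its pseudogene OCLNP1, so its values are given as those of a shared row and stay outside all counts.

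HEK293T is a human embryonic kidney cell line that carries the SV40 large T antigen. Each of 4 groups held 3 arrays, labelled as biological replicates, of cells lysed 78 h after transfection with Origene pRS-RFP-C plasmids in a lipid reagent. The groups received a non-targeting shRNA (shCTRL), an shRNA against LSD1 (shLSD1), an shRNA against UBE4B (shUBE4B), or both (shUBE4B+shLSD1, the double knockdown). Per the study's text, a mutant SOD1 protein was also present in the cells of every group, which the labels do not name. The transfection was transient, so each extract may also have held cells without a plasmid, in a share that is not given in the sources used here. UBE4B is a ubiquitin ligase and LSD1, the product of KDM1A, is a histone demethylase. UBE4B signal was 37.8% and 37.4% of the control in the UBE4B and double knockdowns, and KDM1A signal was 41.6% and 46.0% in the LSD1 and double knockdowns. Of 7 markers that fit a HEK293 origin, 0 passed the test against the control in any knockdown. Over all genes, 0.820%, 10.1% and 7.56% passed in the LSD1, UBE4B and double knockdowns. Between knockdowns, 1 of the 7 passed in the double against the LSD1 knockdown and 1 in the UBE4B against the LSD1 knockdown (2.79% and 5.46% of all genes). In the control, the mean log2 signal of the 7 markers ran from 7.16 (PAX2) to 11.27 (VIM). The 8 colon markers ran from 4.76 (CDH17) to 9.28 (CDX2). The 6 motor neuron markers ran from 5.08 (ELAVL4) to 9.18 (SLC18A3), with MNX1 at 9.13. Averaged over each list, the control arrays read 9.04 to 9.23 for HEK293, 6.43 to 6.45 for colon and 7.23 to 7.34 for motor neuron markers. These are levels of different rows set beside each other, so they do not settle the cell type.

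Tight junctions are the belts of contact that seal the space between neighbouring epithelial cells. Claudins are membrane proteins with 4 transmembrane segments, known as background from work on epithelia, whose outer loops meet those of the next cell and set which ions and solutes can pass. Occludin, encoded by OCLN, is another membrane protein of the belt. ZO-1, encoded by TJP1, is the scaffold beneath the membrane that ties claudins and occludin to the actin cytoskeleton. CLDN12 belongs to the claudins that lack the usual tail by which most family members bind ZO proteins, and it has been linked to calcium permeability in the gut and kidney.

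The sequence before the annotated start of CLDN12 is shown because its signal was lower in every knockdown. That of CLDN1 is shown because its signal lay below the control with shLSD1 and above it with shUBE4B, though neither change passed the test. Both are RefSeq sequences on the build GRCh38.p14, read 5′ to 3′ on the strand of the gene, and cover the 250 bases upstream of the start of the transcript. The CLDN12 stretch is chr7:90403211-90403460 on the plus strand and the CLDN1 stretch is chr3:190322447-190322696 on the minus strand. The capitals in CLDN12 mark AATTGTAGT, the reverse complement of ACTACAATT, which is part of the sequence that the zinc finger factor ZNF143 is known to bind.
CLDN12 upstream: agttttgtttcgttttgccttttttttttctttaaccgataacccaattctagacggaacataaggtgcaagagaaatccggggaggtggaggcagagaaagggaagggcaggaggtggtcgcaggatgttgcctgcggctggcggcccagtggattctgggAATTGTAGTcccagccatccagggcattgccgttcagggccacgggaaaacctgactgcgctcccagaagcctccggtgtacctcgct
CLDN1 upstream: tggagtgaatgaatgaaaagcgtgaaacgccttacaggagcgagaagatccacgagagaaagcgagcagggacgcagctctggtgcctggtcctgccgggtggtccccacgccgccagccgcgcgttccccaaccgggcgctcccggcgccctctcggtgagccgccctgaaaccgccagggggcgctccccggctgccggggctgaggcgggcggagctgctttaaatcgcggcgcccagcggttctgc
The CLDN12 stretch had a GC content of 54.4% with 12 CpG dinucleotides, and the CLDN1 stretch 68.8% with 28, against medians of 58.0% and 11 over 35116 upstream windows of the same length. All 9 genes were matched, with 15 windows among them, since some genes have several annotated starts. On either strand, the GC box GGGCGG, the core letters of SP1 sites, was in 11 of the 15 windows and in 42.64% of all windows. Each of the other 8 genes had it in at least 1 window, and CLDN12 had it in none. The E2-box CAGGTG, the letters read by the SNAI and ZEB repressors, was in 4 of the 15 windows, those of CLDN7, OCLN and TJP1, and in 17.49% of all windows. The letters ACTACAATT were searched for after the CLDN12 sequence had been seen. They were in the CLDN12 window alone of the 15, starting 88 bases before the start, and in 112 or 0.3189% of all windows. These matches are a description of the letters, and the arrays hold no measurement of binding.

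All signals below are log2 values of the deposited table, in which 1 unit is a doubling, and each row was compared only with itself across arrays. Errors beside means are the SD of 3 arrays, and intervals are 95% confidence intervals from limma. Except for the changes of CLDN12 against the control, a change was called when limma's p, adjusted by Benjamini-Hochberg over all 18417 genes, was under 0.05. The 3 comparisons with the control share the same control arrays. In these whole-dish extracts, fewer cells that use a gene and less RNA per cell cannot be told apart.

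CLDN12 signal (row 8134091) stepped down from the control through the LSD1 and UBE4B knockdowns to the double knockdown. The 3 control arrays read 10.35, 10.25 and 10.37, with a mean of 10.32 ± 0.07. The shLSD1 arrays read 9.82, 9.92 and 9.80, with a mean of 9.84 ± 0.06. The shUBE4B arrays read 9.41, 9.63 and 9.51, with a mean of 9.52 ± 0.11. No array of one group reached the range of another among these 3 groups. The shUBE4B+shLSD1 arrays read 9.13, 9.31 and 9.24, a mean of 9.23 ± 0.09, and all of them lay below every array of the other groups.

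Against the control, CLDN12 was lower by a log2 change of -0.48 (-0.64 to -0.32) in the LSD1 knockdown, which leaves 71.7% of the control signal. In the UBE4B knockdown the change was -0.80 (-0.96 to -0.65). With both shRNAs it was -1.10 (-1.25 to -0.94), which leaves 46.8% of the control signal. These 3 falls are what the gene was chosen for, so they are given as a description and with no test. Counted from the lowest change among 18417 genes, CLDN12 stood 21st with shLSD1, 13th with shUBE4B and 4th with both shRNAs. The shares of all genes called lower were 0.315% with shLSD1, 4.47% with shUBE4B and 3.83% with both shRNAs, which is given beside the places and not as a test of CLDN12.

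**Figure D1:**
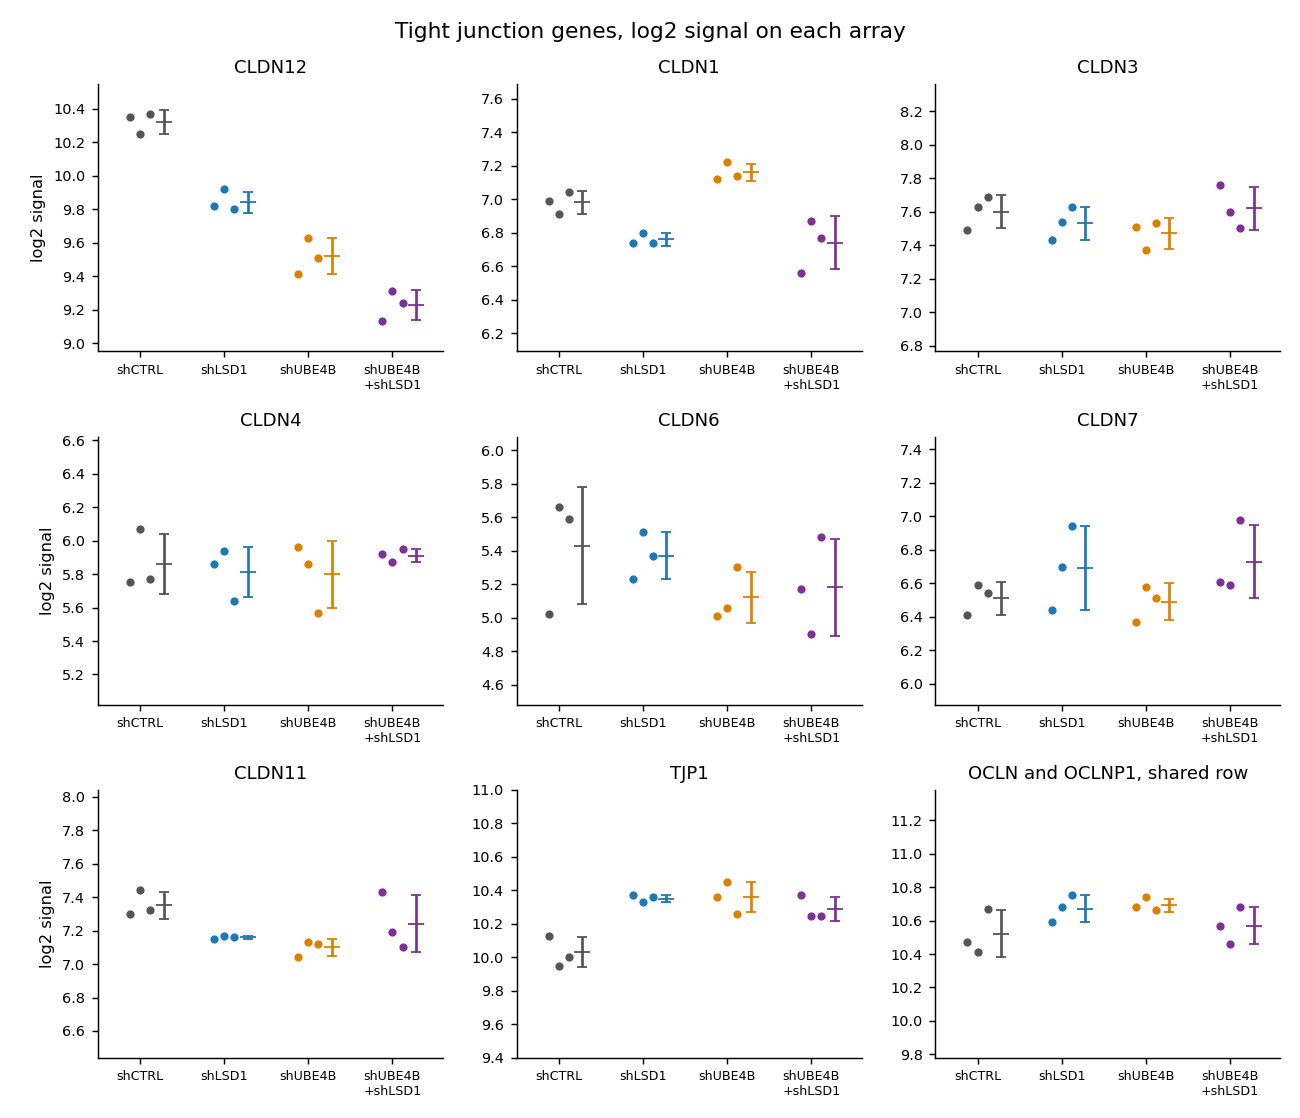
Log2 signal (vertical axis, each panel spans the same number of log2 units) of the tight junction genes on the 12 arrays, by shRNA group, with 1 point for each array and the mean ± SD of 3 arrays beside them. CLDN12 steps down from 10.32 in the control to 9.23 in the double knockdown with no overlap between groups, TJP1 lies above the control in every knockdown, and the row shared by OCLN and OCLNP1 is in the last panel.

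The knockdowns were also set against each other for CLDN12. Adding the UBE4B shRNA to the LSD1 shRNA went with a further change of -0.62 (-0.78 to -0.46), and limma's adjusted p was 0.000935. Adding the LSD1 shRNA to the UBE4B shRNA went with a change of -0.29 (-0.45 to -0.13), for which limma's adjusted p of 0.1558 missed the threshold. All 3 arrays of the double knockdown lay below all 3 of the UBE4B knockdown, as they did for 2189 of 18417 genes. In either direction, 4263 genes did not overlap in that comparison. The UBE4B knockdown was lower than the LSD1 knockdown by a log2 change of -0.33 (-0.48 to -0.17), with an adjusted p of 0.02202 from limma. That call ended without any 1 of the 3 shLSD1 arrays, or without shUBE4B replicate 1 or 3, where the change was between -0.35 and -0.27 and the adjusted p reached 0.1004. The same knockdown arrays had been used to choose CLDN12, so these p-values are not independent of the choice. They are given as a description and not as support for the steps. The changes of the 2 single knockdowns add to -1.28, and the double knockdown differed from that sum by 0.19 with no test.

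TJP1 (row 7986977), the scaffold ZO-1, moved the other way and was higher in every knockdown. Its control arrays read 10.13, 9.95 and 10.00. The shLSD1 arrays read 10.37, 10.33 and 10.36, and the shUBE4B arrays read 10.36, 10.45 and 10.26. With both shRNAs they read 10.37, 10.25 and 10.25. All 9 knockdown arrays thus lay above all 3 control arrays, while the knockdowns overlapped one another.

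TJP1 rose by a log2 change of 0.33 (0.18 to 0.48) in the LSD1 knockdown, with an adjusted p of 0.04931 from limma. In the UBE4B knockdown it rose by 0.33, with an adjusted p of 0.01036, and in the double knockdown by 0.26 (0.11 to 0.41), with an adjusted p of 0.03443 from limma. The double knockdown fell short of the sum of both single changes by -0.39 (-0.61 to -0.18), but limma's adjusted p for that interaction was 0.1858. The calls of TJP1 were close to the threshold. Of the 22 alternative settings tried, 5 kept the call in the LSD1 knockdown, and leaving out any 1 of the 12 arrays ended it, with an adjusted p of 0.05394 to 0.1594. Of the same 22, 11 kept it in the double knockdown, with an adjusted p of up to 0.1229 without 1 array (the call ended without shCTRL replicate 2 or 3, shLSD1 replicate 2, shUBE4B replicate 1 or any array of the double knockdown). In the UBE4B knockdown 19 of 22 kept it, and of the 12 arrays only shUBE4B replicate 2 ended it when left out, with an adjusted p of 0.05212. The direction was upward under all 22 settings in each knockdown.

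CLDN1 (row 8092726), a claudin of skin and many other barriers, differed most between the 2 single knockdowns. Its control arrays read 6.99, 6.91 and 7.04. The shLSD1 arrays, at 6.74, 6.80 and 6.74, all lay below them, and the shUBE4B arrays, at 7.12, 7.22 and 7.14, all lay above them. The arrays that received both shRNAs read 6.56, 6.87 and 6.77, again all below the control and overlapping the LSD1 knockdown. Against the control the log2 changes of -0.22, 0.18 and -0.25 in the LSD1, UBE4B and double knockdowns had adjusted p-values of 0.2322, 0.1599 and 0.0731 from limma and were not called. The last of these was -0.16 (adjusted p = 0.2365) without replicate 1 of the double knockdown and -0.31 (adjusted p = 0.03892) without its replicate 2.

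The direct comparison of the single knockdowns was called for CLDN1. The UBE4B knockdown was higher than the LSD1 knockdown by a log2 change of 0.39 (0.23 to 0.56), with an adjusted p of 0.01145 from limma. The call ended without shUBE4B replicate 2, where the change was 0.37 and the adjusted p 0.05345, and it could not be tested once the 40% of genes with the lowest mean signal were left out, since CLDN1 was among them. Adding the LSD1 shRNA to the UBE4B shRNA went with a change of -0.42 (-0.59 to -0.25), at the threshold with an adjusted p of 0.05063. With each of the 12 arrays left out, the change was between -0.49 and -0.33 and that adjusted p between 0.02888 and 0.2308. It was under the threshold without shCTRL replicate 2 or replicate 2 of the double knockdown, and highest without shUBE4B replicate 2. Adding the UBE4B shRNA to the LSD1 shRNA went with a change of -0.03 and an adjusted p of 0.9207.

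None of the other claudins among the members was called. CLDN11, the claudin of myelin and of the Sertoli cell barrier, read 7.30, 7.44 and 7.32 in the control, 7.15, 7.17 and 7.16 with shLSD1, and 7.04, 7.13 and 7.12 with shUBE4B. Both single knockdowns therefore lay below the control on every array. The changes of -0.19 and -0.25 had adjusted p-values of 0.3218 and 0.06059 from limma, and the second passed under 3 of the alternatives, among them the fit without replicate 1 of the double knockdown (adjusted p = 0.02647). In the double knockdown CLDN11 read 7.43, 7.19 and 7.10, which spans the control, and the change was -0.11.

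CLDN3 and CLDN4, claudins known as receptors of a Clostridium enterotoxin, overlapped their control arrays in every knockdown. CLDN3 read between 7.37 and 7.76 over the 12 arrays, with changes of -0.07, -0.13 and 0.02 in the LSD1, UBE4B and double knockdowns. CLDN4 read between 5.57 and 6.07, with changes of -0.05, -0.07 and 0.05. The 95% intervals of these changes reach from 0.31 below the control to 0.29 above it.

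CLDN6, a claudin of embryonic epithelia, had the widest spread within the control group among the members, with control arrays of 5.02, 5.66 and 5.59 and a range over all arrays of 4.90 to 5.66. Its change in the UBE4B knockdown was -0.30 (-0.66 to 0.06), with an adjusted p of 0.2604 from limma, and its size moved with the control arrays. Without shCTRL replicate 1, the low control array, the change was -0.50 with an adjusted p of 0.04925, and without shCTRL replicate 2 it was -0.18 with an adjusted p of 0.6086. CLDN7, a claudin that binds EPCAM, read between 6.37 and 6.98, with its highest values on shLSD1 replicate 3 (6.94) and on replicate 3 of the double knockdown (6.98). Its changes were 0.18, -0.03 and 0.21, with adjusted p-values of 0.5927, 0.9163 and 0.3827 from limma. CLDN1, CLDN4, CLDN6 and CLDN7 were among the 40% of genes with the lowest mean signal, a range in which a change of RNA gives a smaller change of array signal.

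The row shared by OCLN and OCLNP1 read 10.47, 10.41 and 10.67 in the control and between 10.46 and 10.75 over the knockdowns. Its changes of 0.15, 0.17 and 0.05 had adjusted p-values of 0.5368, 0.2327 and 0.8464 in a limma fit over all rows of the table. Control and knockdown arrays overlapped, and signal of the gene and of the pseudogene cannot be told apart on it.

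**Figure D2:**
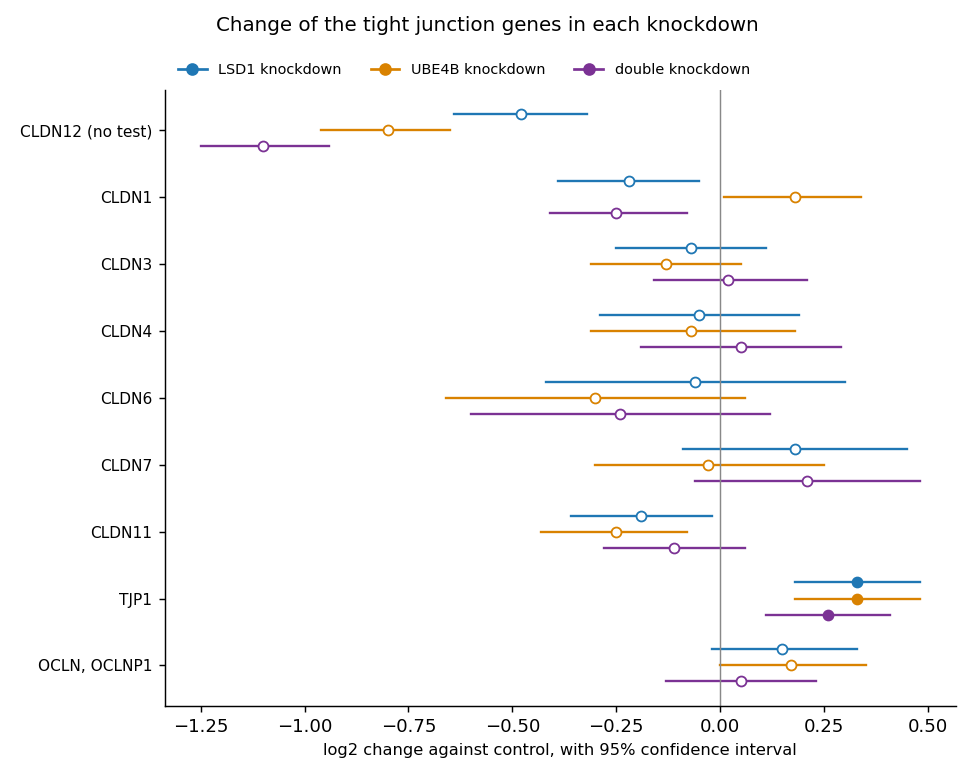
Log2 change against the control (horizontal axis) with its 95% confidence interval for the tight junction genes in the LSD1, UBE4B and double knockdowns. Filled points passed limma's adjusted threshold; those of CLDN12 are open because it was chosen for these changes and was not tested. TJP1 is filled at 0.33, 0.33 and 0.26, and the intervals of CLDN3, CLDN4, CLDN6 and CLDN7 cross 0.

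As counts over the 7 members other than CLDN12 with a row of their own, 1 was called higher and 0 lower in each of the 3 comparisons with the control, and the called gene was TJP1 each time. The background of genes called higher was 0.505% with shLSD1, 5.59% with shUBE4B and 3.74% with both shRNAs. The median changes of the 7 were -0.06, -0.07 and 0.02, beside -0.01, -0.03 and -0.01 over all genes. At an unadjusted p under 0.05, 3, 3 and 2 of the 7 passed, beside 13.4%, 27.5% and 20.7% of all genes. Control and knockdown arrays did not overlap for 3, 3 and 2 of the 7 in the LSD1, UBE4B and double knockdowns, where 16.6%, 30.3% and 21.9% of all genes did not overlap. Between knockdowns, 0 of the 7 were called in the double against the LSD1 knockdown (background 2.79%) and in the double against the UBE4B knockdown (0.147%), with 0 and 1 passing at an unadjusted p under 0.05, beside 15.4% and 13% of all genes. In the UBE4B against the LSD1 knockdown 1 of 7 was called, CLDN1, beside 5.46% of all genes. For the interaction of the knockdowns 0 of 7 and 0.0% of all genes were called, and 2 of the 7, TJP1 and CLDN11, passed at an unadjusted p under 0.05, beside 13.1% of all genes.

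None of the 6 nearest measured genes around CLDN12 was called lower. Of all genes, only 0.315%, 4.47% and 3.83% were called lower in the LSD1, UBE4B and double knockdowns. A count of 0 of 6 is near those shares and says little about the locus. In the order of the chromosome the 6 were STEAP2, CFAP69 and GTPBP10 before CLDN12 and CDK14, FZD1 and MTERF1 after it. GTPBP10, next to CLDN12 and encoding a GTPase of the mitochondrial ribosome, changed by -0.04, 0.15 and -0.07 in the LSD1, UBE4B and double knockdowns, with no call. CDK14, a cyclin-dependent kinase and the neighbour on the other side, rose by 0.26 in the UBE4B knockdown with an adjusted p of 0.04457 from limma, a call kept in 6 of 22 settings (adjusted p of up to 0.1594). CFAP69, a cilium protein, rose by 0.28 there with an adjusted p of 0.04588, a call kept in 5 of 21 settings (adjusted p of up to 0.2529), since 1 setting leaves dim genes out. STEAP2, a metalloreductase, had the lowest change of the 6, with -0.30 in the double knockdown and an adjusted p of 0.06252 from limma.

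**Figure D3:**
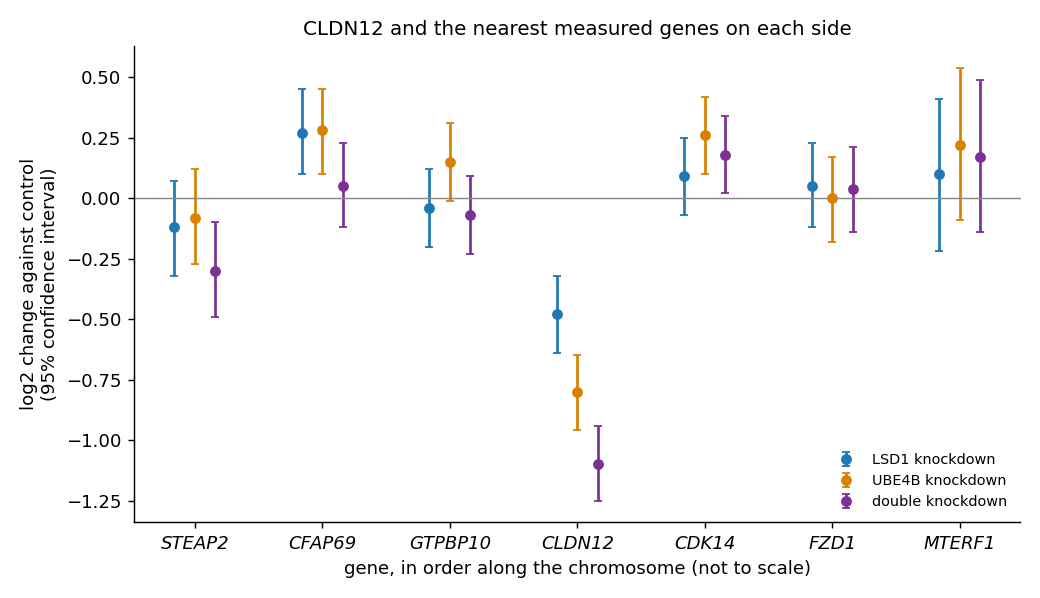
Log2 change against the control with its 95% confidence interval (vertical axis) for CLDN12 and the 3 nearest measured genes on each side, in their order along the chromosome (horizontal axis, not to scale), in the 3 knockdowns. CLDN12 lies at -0.48, -0.80 and -1.10, while GTPBP10 beside it lies between -0.07 and 0.15.

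The remaining claudins and the proteins that work with them were read from 7 lists of junction genes, of which 65 of 72 genes had a row of their own. Of the 65, 2 were called higher and 0 lower with shLSD1. With shUBE4B, 4 were called higher and 5 lower, and with both shRNAs 4 higher and 2 lower. These are 3.08%, 13.85% and 9.23% of the 65 in either direction, beside 0.820%, 10.1% and 7.56% of all genes. The medians of the 65 were 0.05, -0.02 and 0.01, close to those of all genes, and counts under other settings differed widely (0 to 6, 0 to 10 and 0 to 11).

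Of 16 further claudins with a row of their own, 0 were called in any comparison with the control. The shares of all genes were 0.820%, 10.1% and 7.56% in the LSD1, UBE4B and double knockdowns. Apart from CLDN15 and CLDN19, the control means of these claudins ran from 3.95 (CLDN24) to 7.03 (CLDN5). The threshold for the 40% dimmest genes was a mean of 7.04, and array signal is compressed for dim rows. A count of 0 of 16 is also near the shares of all genes, so it says little about these claudins. At an unadjusted p under 0.05, 1, 2 and 1 of the 16 passed in the LSD1, UBE4B and double knockdowns, where 13.4%, 27.5% and 20.7% of all genes did. Their changes lay between -0.23 and 0.27. The tight junction proteins MARVELD2 (tricellulin) and MARVELD3, relatives of occludin, were called in 0 of the 3 comparisons, and MARVELD2 had a change of 0.36 in the UBE4B knockdown.

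Among the cytoplasmic scaffolds, 0, 3 and 1 of 10 were called in the LSD1, UBE4B and double knockdowns, beside 0.820%, 10.1% and 7.56% of all genes. So few calls in a list this short, here and in the lists below, are not read as a result about the list. MPDZ, which encodes the PDZ protein MUPP1 that binds claudin tails, read 8.13, 8.20 and 8.42 in the control, 8.66, 8.75 and 8.78 with shUBE4B, and 8.76, 8.74 and 8.90 in the double knockdown. It rose by 0.48 and 0.55, with adjusted p-values of 0.002978 and 0.001083 from limma. In the LSD1 knockdown its arrays of 8.52, 8.65 and 8.59 also lay above the control, with a change of 0.34 and an adjusted p of 0.07196.

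AFDN, or afadin, which joins nectins to actin, rose by 0.27 in the UBE4B knockdown with an adjusted p of 0.009915 from limma. All 3 of its shUBE4B arrays, at 9.92, 9.91 and 9.95, lay above the control arrays, the highest of which read 9.69. TJP3, the ZO-3 scaffold, went down there by -0.33 with an adjusted p of 0.04298, a call kept in 7 of 22 settings with an adjusted p of up to 0.3003. Set against the LSD1 knockdown, TJP3 was lower in the UBE4B knockdown by a log2 change of -0.54, with an adjusted p of 0.005509 from limma, and all 22 settings kept that call.

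The immunoglobulin-type membrane proteins had 0, 2 and 0 of 8 called in the LSD1, UBE4B and double knockdowns, beside 0.820%, 10.1% and 7.56% of all genes. LSR, the protein that recruits tricellulin to contacts of 3 cells, read 9.48, 9.39 and 9.42 in the control and 9.22, 9.09 and 9.03 with shUBE4B. It fell by 0.31 on the log2 scale with an adjusted p of 0.01483 from limma, a call kept in 18 of 22 settings and ended without shUBE4B replicate 2 (adjusted p = 0.05759) or 3 (adjusted p = 0.06796). ESAM, an adhesion molecule of endothelial cells and platelets, changed by -0.23 with an adjusted p of 0.04918, and 5 of 21 settings kept the call, with an adjusted p of up to 0.1488.

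The adherens junction lies beneath the tight junction and is built from cadherins and catenins. Of its 11 measured genes, 1, 2 and 1 were called in the LSD1, UBE4B and double knockdowns, beside 0.820%, 10.1% and 7.56% of all genes. JUP, which encodes plakoglobin, a catenin shared with desmosomes, was the only gene of the 65 called in every knockdown. It read 9.40, 9.48 and 9.40 in the control, 9.79, 9.70 and 9.77 with shLSD1, 10.01, 9.87 and 9.97 with shUBE4B, and 9.87, 9.86 and 9.98 in the double knockdown. It rose by 0.33, 0.52 and 0.48, with adjusted p-values of 0.03319, 0.0004569 and 0.0005379 from limma.

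The JUP call in the LSD1 knockdown was kept in 10 of 22 settings, with an adjusted p of up to 0.1883, while those in the other 2 comparisons were kept in 21 of 22. The arrays of every knockdown lay above every control array. CDH1, E-cadherin, read 6.77, 6.87 and 7.06 in the control and 6.43, 6.60 and 6.60 with shUBE4B, all below it. It changed by -0.36 there, with an adjusted p of 0.0393 from limma that held in 11 of 21 settings and reached 0.2103.

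The polarity proteins, which set the apical and basal sides of an epithelial cell, had 0, 1 and 1 of 9 called. The shares of all genes were 0.820%, 10.1% and 7.56% in the LSD1, UBE4B and double knockdowns. PARD6A, a partner of atypical protein kinase C, changed by -0.36 in the UBE4B knockdown with an adjusted p of 0.04328, kept in 11 of 22 settings and reaching 0.2121. LIN7C, a small PDZ scaffold, read 10.60, 10.42 and 10.63 in the control and 10.29, 10.19 and 10.33 in the double knockdown. It changed by -0.28 with an adjusted p of 0.0303 from limma, kept in 14 of 22 settings and reaching 0.2547. In the LSD1 knockdown the change was -0.30 with an adjusted p of 0.07662, and in the UBE4B knockdown 0.02. Between the single knockdowns LIN7C was higher with shUBE4B by 0.32, with an adjusted p of 0.01988 from limma that held in 17 of 22 settings.

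Among the signalling and traffic proteins of junctions, 1, 1 and 3 of 9 were called, beside the same 0.820%, 10.1% and 7.56% of all genes. AMOT, or angiomotin, which holds the Hippo pathway factor YAP at junctions, read 9.08, 9.30 and 9.48 in the control and 9.78, 9.88 and 9.84 with shLSD1. With both shRNAs it read 9.76, 10.01 and 9.86, and with shUBE4B alone 9.23, 9.48 and 9.51, which overlaps the control. AMOT rose by 0.55 in the LSD1 knockdown and by 0.59 in the double knockdown, with adjusted p-values of 0.03319 and 0.00378 from limma. Between the single knockdowns the change was -0.43 with shUBE4B, and the adjusted p of 0.03036 from limma held in 14 of 22 settings and in none that left out 1 of the 6 arrays compared (adjusted p of 0.05449 to 0.1357).

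The first of these AMOT calls held in 13 of 22 settings and ended without shCTRL replicate 1 or 2, any shLSD1 array or shUBE4B replicate 2, with adjusted p-values of 0.05182 to 0.1421. YBX3, the factor known as ZONAB that binds ZO-1, read 10.93, 10.81 and 11.06 in the control, 11.48, 11.31 and 11.51 with shUBE4B, and 11.46, 11.42 and 11.39 in the double knockdown. It rose by 0.50 and 0.49, with adjusted p-values of 0.001816 and 0.00155 from limma. In the LSD1 knockdown its change was 0.27, with an adjusted p of 0.1162. AMOTL2, a relative of AMOT, changed by -0.26 in the double knockdown with an adjusted p of 0.04335, and 7 of 22 settings kept the call, with an adjusted p of up to 0.1506.

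**Figure D4:**
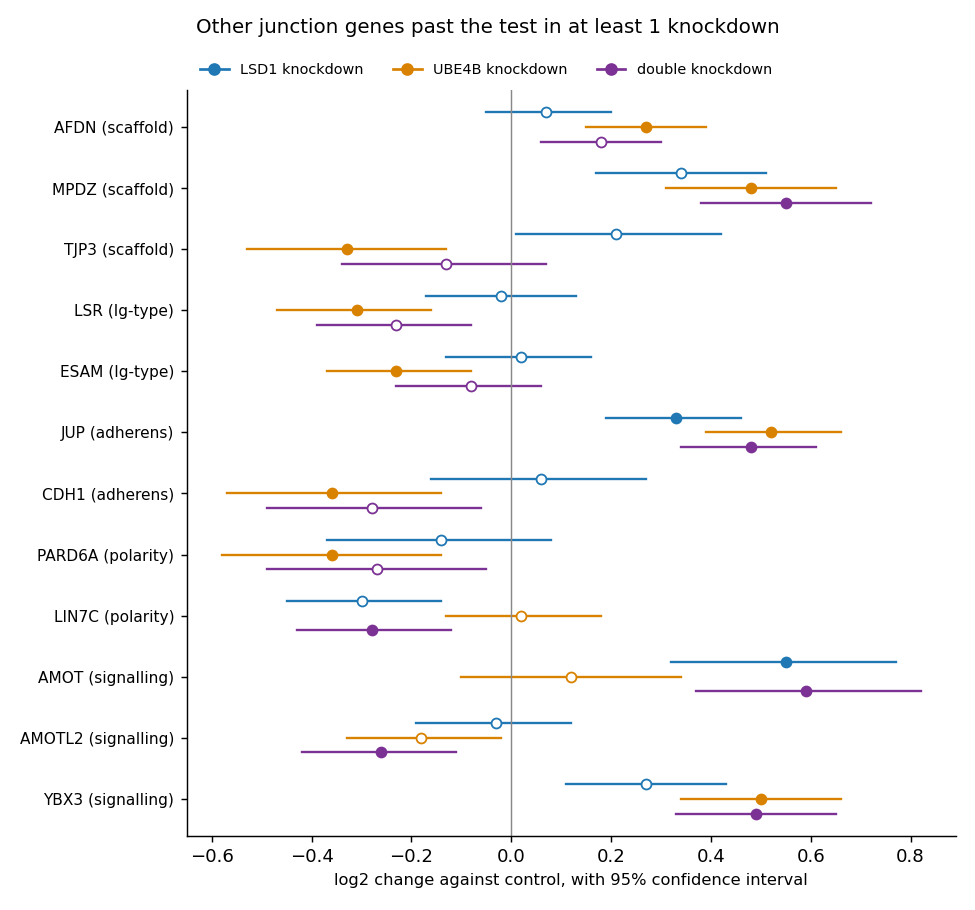
Log2 change against the control (horizontal axis) with its 95% confidence interval for the 12 of 65 junction genes that passed limma's adjusted threshold in at least 1 knockdown, ordered by role. Filled points passed it. JUP is filled in all 3 knockdowns at 0.33, 0.52 and 0.48, MPDZ and YBX3 in the UBE4B and double knockdowns, and AMOT in the LSD1 and double knockdowns.

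The transcription factors known to switch junction genes on or off were not called. Of 11 measured, among them SNAI1, SNAI2, ZEB1, ZEB2, TWIST1 and GRHL2, 0 were called against the control in any knockdown by limma. The shares of all genes called were 0.820%, 10.1% and 7.56% in the LSD1, UBE4B and double knockdowns. At an unadjusted p under 0.05, 1, 3 and 2 of the 11 passed in the LSD1, UBE4B and double knockdowns, beside 13.4%, 27.5% and 20.7% of all genes. Their changes lay between -0.36 and 0.22.

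A small set of genes had signals that ran most like or most unlike that of CLDN12 over the 12 arrays, judged by Pearson's r. The highest values were those of STK26 (0.974), a protein kinase, NEK7 (0.970), a kinase of the inflammasome and of mitosis, RAPGEF2 (0.970), an activator of RAP GTPases, C2orf69 (0.969) and POMK (0.969), a kinase that modifies dystroglycan. STK26 read 11.10, 10.96 and 11.14 in the control and 10.25, 10.22 and 10.42 in the double knockdown. Its single knockdowns lay in between, with means of 10.77 for shLSD1 and 10.53 for shUBE4B, the order seen for CLDN12.

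The most opposed genes were NSUN4 (r = -0.974), a methyltransferase of mitochondrial ribosomal RNA, PNRC2 (-0.970), a decapping cofactor, HMGN1 (-0.969), a nucleosome-binding protein, PEA15 (-0.965), a death effector domain protein, and MKRN1 (-0.963), a ubiquitin ligase. PEA15 read 10.51, 10.55 and 10.69 in the control and 11.36, 11.33 and 11.47 in the double knockdown. The arrays share their groups, so an r of this size rests mainly on the group means. With each group's mean removed, r with CLDN12 was between 0.31 and 0.70 for STK26, NEK7, RAPGEF2 and POMK and -0.69 for C2orf69. For the opposed genes it was -0.69 for NSUN4, -0.63 for MKRN1, -0.53 for HMGN1, -0.23 for PNRC2 and -0.08 for PEA15. A choice by r of the deviations shared 0 of the 5 genes at either end. Among the tight junction genes themselves, r with CLDN12 was -0.66 for TJP1, 0.43 for CLDN6, 0.39 for CLDN11, 0.25 for CLDN1, -0.25 for CLDN7, -0.11 for CLDN4 and -0.02 for CLDN3.

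**Figure D5:**
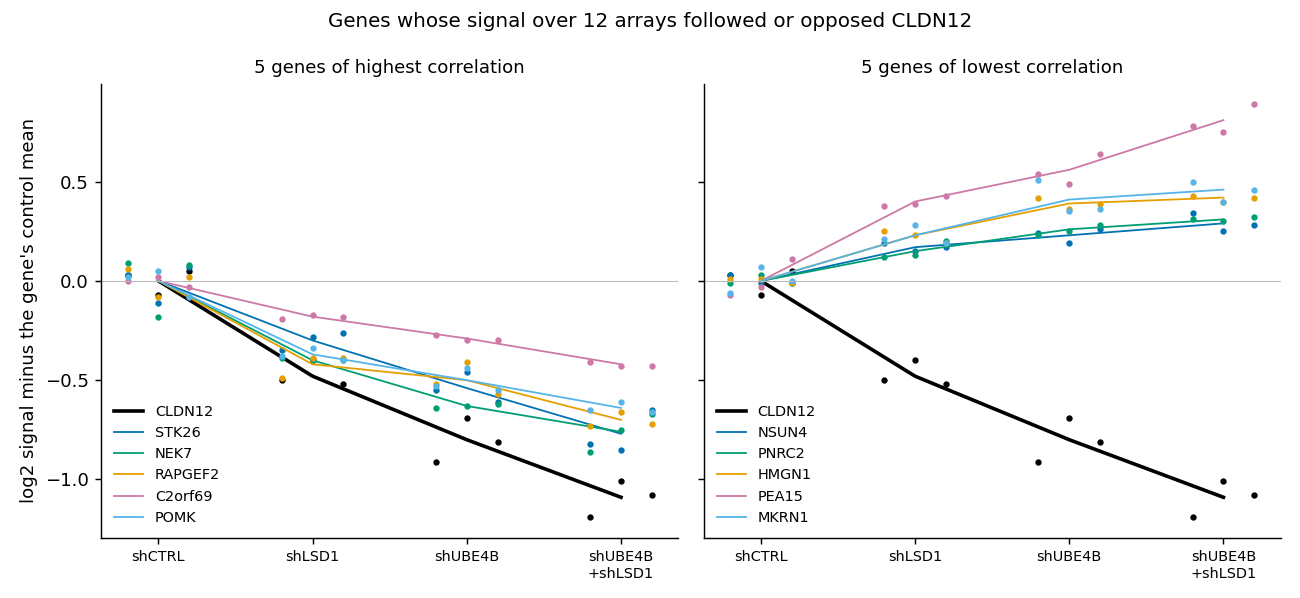
Log2 signal minus each gene's control mean (vertical axis) by shRNA group for CLDN12 (black) and the 5 genes of highest (left) and lowest (right) Pearson's r with it over 12 arrays. Points are arrays and lines join the group means. The genes on the left step down with CLDN12 to the double knockdown and those on the right step up.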

How the data were processed

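Total RNA of 12 HEK293T cultures in 4 groups of 3 was profiled on Affymetrix Human Gene 1.0 ST arrays. The deposited values were log2 signals that, per the labels and the study's methods, the authors made by RMA in Partek with hg19 annotation. The labelling kit is named differently in the labels and in the study's supplement. Of 33297 rows, 19460 carried 1 gene symbol, 1754 several and 12083 none in the platform annotation. Rows with several symbols were not used, and the brightest row stood for each of 18417 genes. Probe-level depth and detection calls were not used here, and the number of arrays limits the precision. Array medians ran from 7.00 to 7.06.

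limma 3.58.1 in R 4.3.3 (lmFit and eBayes on group means, 8 residual and 5.13 prior degrees of freedom) was fitted to all 12 arrays, with Benjamini-Hochberg adjustment over 18417 genes and a threshold of 0.05. It was tested on simulated data. P-values measure the spread between arrays labelled as biological replicates. The members and gene lists were chosen with earlier results of these data known. Named outside the members were the knocked down genes, the 3 nearest measured genes on each side of CLDN12, up to 16 called genes of the junction lists and regulators, and the 5 genes at each end of r with CLDN12. Genes of the junction lists without a row of their own (among them CLDN25, F11R, MAGI1, MAGI2, ARHGEF2 and CTNND1) and the regulators ESRP1 and HNF4A were not analysed here. Colon epithelium and motor neuron markers were read beside those of HEK293. Upstream sequences came from RefSeq (GRCh38.p14), a different build from the authors' hg19, and no coordinates of the arrays were used with them.

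Alternatives were each array left out, the replicate number as a block, trended and robust variances, only the 6 arrays of a comparison, array weights, centring of each array on its median, a further quantile normalization, all rows of a gene averaged, leaving out the 40% dimmest genes, all rows of the table, and the methods' t-test. The methods used a fold of 1.2 with an unadjusted p under 0.05.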

Additional observations from a re-analysis of the deposited data

How the results depend on the processing

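With 3 arrays a group, 31 called gene and comparison pairs other than those of CLDN12 were recomputed. Of these 31, 1 (TJP3, UBE4B against LSD1 knockdown) kept the call under all 22 alternatives, and the methods' t-test after adjustment ended all of the 31 but that one and the same comparison of CLDN1. Calls between knockdowns of junction genes and markers that are not named here were not recomputed one by one. None of the 31 turned its direction. Array signal is compressed for dim rows, CLDN1, CLDN4, CLDN6 and CLDN7 among them. The array with the lowest weight was shCTRL replicate 2 (0.28), which all comparisons with the control share.

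Of the 7 members other than CLDN12, the count called in the LSD1 knockdown (1 as reported) was 0 to 0 with each array left out, and 0 with the 6 arrays of the comparison, array weights, median-centred arrays, all rows and the methods' t-test. In the UBE4B knockdown (1) it was 0 to 2 with an array left out, 0 with 6 arrays and the t-test, and 2, CLDN11 and TJP1, with further quantile normalization and without the dimmest genes. In the double knockdown (1) it was 0 to 1 with an array left out, and 0 with 6 arrays, array weights, all rows and the t-test. In the double against the UBE4B knockdown (0) it was 0 to 1 with an array left out, and 1, CLDN1, with trended and robust variances and with array weights. In the UBE4B against the LSD1 knockdown (1) it was 0 to 1, and 0 without the dimmest genes, since CLDN1 was left out.

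Of the 65 junction genes, the count in the LSD1 knockdown (2) was 0 to 2 with an array left out, 6 with trended and robust variances, 5 with array weights, 5 without the dimmest genes, and 0 with 6 arrays, all rows and the t-test. In the UBE4B knockdown (9) it was 4 to 10 with an array left out, 3 with 6 arrays, 5 with all rows and 0 with the t-test. In the double knockdown (6) it was 4 to 7 with an array left out, 11 without the dimmest genes and 0 with the t-test. Further quantile normalization moved the share of higher calls among all genes in the UBE4B knockdown from 55.6% to 44.9%.

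For CLDN12 the change against the control with each array left out was -0.52 to -0.45, -0.86 to -0.75 and -1.14 to -1.05 in the LSD1, UBE4B and double knockdowns. Between the double and LSD1 knockdowns it was -0.66 to -0.57, between the double and UBE4B knockdowns -0.34 to -0.23, and between the UBE4B and LSD1 knockdowns -0.38 to -0.27. By the methods' t-test, the double against the LSD1 knockdown gave -0.62 with an adjusted p of 0.06957, and the UBE4B against the LSD1 knockdown -0.33 with an adjusted p of 0.1043. Here too the arrays had served to choose CLDN12, so both p-values are a description. At the methods' own fold and p, that t-test passed 485, 1563 and 1211 genes in the LSD1, UBE4B and double knockdowns, and 1, 46 and 48 after Benjamini-Hochberg. The causes of these differences were not tested.

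The replicate numbers were checked for pairing. Of 18 pairs of same-numbered arrays, 10 had deviations that correlated over 0.1, with a range of -0.08 to 0.33, so the numbers were not taken as pairs, which needed every pair over 0.1. As a hint the other way, 9 of 12 arrays correlated best with their own number. With the replicate block the genes called in the LSD1 knockdown went from 151 to 237 of all genes and from 2 to 4 of the junction genes, and no other count of the members or junction genes moved by over 1.5 times.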

Other observations

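EPCAM, the epithelial adhesion protein that binds and stabilises CLDN7, was read among 8 markers of colon epithelium and was the only one of them called. That is 1 of 8 in the UBE4B and double knockdowns, beside 10.1% and 7.56% of all genes. The median changes of the 8 were 0.03 and 0.01 there. EPCAM read 6.59, 6.19 and 6.94 in the control, 6.00, 6.02 and 6.04 in the UBE4B knockdown, and 5.88, 6.02 and 6.07 in the double knockdown. Its changes were -0.55 with an adjusted p of 0.02636 and -0.58 with an adjusted p of 0.02316 from limma, and in the LSD1 knockdown -0.08. These calls held in 12 and 13 of 21 settings, and both ended without shCTRL replicate 1 or 3 and with the mean of all rows of the gene, with adjusted p-values of up to 0.2883 and 0.3645 over the settings. CLDN7 changed by -0.03 and 0.21 in the UBE4B and double knockdowns and was not called. Of 6 motor neuron markers 1 was called against the control, MNX1 in the UBE4B knockdown, where 10.1% of all genes were called. Its change was -0.30, with an adjusted p of 0.0225 from limma that held in 17 of 22 settings. EPCAM and MNX1 were chosen after their values had been seen.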
